A study of Mus musculus with 144 samples.

Results

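Blood microRNA (miRNA) was measured in male C57BL/J6 mice, and 7 array probes that were higher at month 12 than at month 1 are described here across all 18 groups of month and exposure. The probes are 3063, 3210, 3241, 1870, ORB_1008008, ORB_1112352 and ORB1157, and they are 7 of the 1262 mouse probes with deposited values and of 742 probes tested. They were chosen by their difference between months in these same arrays. That difference is therefore given as a description with its SE. The counts of calls on it, pooled or by group, and of month 12 mice above month 1 values are printed for its size and support nothing. How many of all probes reach such counts of mice was not computed. The mice were 7 weeks old when obtained and received 1 treatment: dispersion medium (DM, the negative control), multi-walled carbon nanotubes (MWCNT) at 1, 10, 40 or 80 µg, or 120 µg of crocidolite asbestos, the positive control. Blood was taken 1, 6 or 12 months later, from different mice at each time, with 8 mice and 8 arrays in each group and 144 in all. Age and time since treatment advanced together, so they cannot be told apart.

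A miRNA is a short RNA that is loaded into an Argonaute protein and pairs, mainly through the seed near its 5′ end, with sites in messenger RNAs, whose translation or stability it lowers. In whole blood, miRNA comes from red cells, platelets and white cells and from free complexes and vesicles in plasma, so fewer cells of a type and less RNA per cell cannot be told apart. No source used here links the identifiers of these probes to named miRNAs, and 0 of the 7 identifiers matched the reference tables. The probes are given by identifier, with no sequence, family or function, and blood cell markers could not be looked up.

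All 7 probes were above the detection threshold on 144 of 144 arrays, so the filter on dim probes did not decide which of their groups were compared. Each had 3 spots in 1 block of the array. Median background-subtracted intensity ran from 173 (probe 3241) and 368 (probe ORB1157) to 3019 (probe 1870) and 4838 (probe ORB_1112352), values that rest on each probe's own dye yield and do not rank the miRNAs. The 7 probes varied more between mice of a group than most. Their SD within groups was 0.46 on the log2 scale for probe 3063, 0.45 for probe 3210, 1.02 for probe 3241, 0.83 for probe 1870, 0.46 for probe ORB_1008008, 0.65 for probe ORB_1112352 and 0.75 for probe ORB1157. The median over the 742 probes was 0.22.

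Among the 144 arrays, 8 stood apart. Their median correlation with the other arrays, over the 735 tested probes that are not described here, was 0.928 to 0.967, under a limit of 0.97 set after the data were seen, while the median over all arrays was 0.991. On these 8 arrays 48 to 143 of the 742 probes lay more than 1 log2 unit from their group mean. On the other 136 arrays the number was 0 to 41, with a median of 4. The 8 arrays were 1 each of DM at month 6 (replicate 4), DM at month 12 (replicate 1), 1 µg at month 6 (replicate 3) and 10 µg at month 6 (replicate 7), 2 of 40 µg at month 1 (replicates 4 and 5) and 2 of 80 µg at month 1 (replicates 3 and 5). None was of an exposed group at month 12. Results that rest on them are given with and without them. All 144 arrays lay on 38 slides scanned on 7 days.

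The month 12 difference that chose the probes was largest for probe 3241. Over the 5 exposed groups, probe 3241 was higher at month 12 than at month 1 by 1.34 ± 0.23 (log2 difference, SE, 40 mice a month). The corresponding differences were 0.79 ± 0.10 for probe ORB_1008008, 0.78 ± 0.17 for probe ORB1157, 0.75 ± 0.14 for probe ORB_1112352, 0.70 ± 0.18 for probe 1870, 0.64 ± 0.10 for probe 3063 and 0.51 ± 0.10 for probe 3210. A probe is called below at an unadjusted p under 0.05, an adjusted p under 0.10 (Benjamini-Hochberg over 742 probes, limma) and a fold of 1.5 or more. By this rule 6 of the 7 were called higher at month 12 in exposed mice, beside 1.62% of all probes. Probe 3063 was just inside the fold limit and probe 3210 just outside it. In DM mice the order differed. Probes 3210 and 3063 were higher by 1.02 ± 0.22 and 1.00 ± 0.23 (SE, 8 mice a month), and these were the 2 called of the 7, beside 2.02% of all probes. The other 5 differed in DM by 0.63 ± 0.50 (probe 3241), 0.50 ± 0.23 (probe ORB_1008008), 0.30 ± 0.37 (probe ORB1157), 0.18 ± 0.32 (probe ORB_1112352) and 0.10 ± 0.41 (probe 1870). Nothing is read from these counts, since the same contrasts chose the probes. In the order of the 18 group means, the largest step between neighbours was 0.14 (probe 3063) to 0.34 (probe 1870), below the SD between mice of a group for each of the 7 probes. Steps between sorted means are small by construction, so the order of neighbours is not read.

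Whether a probe was already higher at month 6 was read from mice that were not in the month 12 contrast. The month 1 mice are shared, however, so a month 1 group that was low by chance would raise both differences. The month 12 mice entered the choice of the probes. That could raise the difference between months 12 and 6 and lower the share present at month 6. Those differences and shares, and the calls on them, are therefore a description. Probes 3210, 3063 and 3241 are described singly, and the other 4 together.

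In normalized values probe 3210 was higher by month 6, and in exposed mice months 6 and 12 were close. In the 40 exposed mice of each month it ranged from 9.22 to 11.96 (median 10.96) at month 1, from 10.50 to 12.30 (median 11.48) at month 6 and from 10.29 to 12.18 (median 11.53) at month 12. The groups overlapped, but 38 of 40 mice at month 6 and 33 of 40 at month 12 lay above the month 1 median. The month 6 difference was 0.47 ± 0.10 (SE), which is 92.2% of that at month 12, and months 12 and 6 differed by 0.04 ± 0.10. It was positive in all 5 exposed groups, from 0.33 ± 0.22 at 40 µg to 0.63 ± 0.22 with crocidolite, all with the same SE. At month 12 it was smallest at 40 µg, at 0.12 ± 0.22, against 0.57 to 0.65 in the other 4 groups. Without the 8 arrays that stand apart, the month 1 means were 11.11 at 40 µg and 11.08 at 80 µg. Against month 6 means of 11.58 and 11.31, the month 6 difference was then smallest at 80 µg. The month 12 difference was still smallest at 40 µg, where the month 12 mean was 11.37. In DM its 8 mice ranged from 9.87 to 11.39 (median 10.72) at month 1, from 10.83 to 11.90 (median 11.25) at month 6 and from 11.15 to 11.90 (median 11.61) at month 12. At month 12, 7 of 8 DM mice were above the highest of month 1, and at month 6, 3 of 8. Nothing is read from the month 12 count, since that contrast chose the probe. Within the scan days that held both months, the exposed mice were higher on 5 of 5 days at month 6 (0.34 to 0.65) and on 4 of 4 at month 12 (0.36 to 0.65). The month 12 part repeats the contrast that chose the probe. Before scaling between arrays, the median background-subtracted intensity in exposed mice was 2353.5 at month 1, 2367.0 at month 6 and 3203.5 at month 12. Months 1 and 6 were close on that scale, so the month 6 difference is one of normalized values.

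Group by group, the means of probe 3210 at month 1 were 10.59 ± 0.57 (DM), 10.98 ± 0.30 (1 µg), 10.89 ± 0.25 (10 µg), 11.25 ± 0.41 (40 µg), 10.86 ± 0.78 (80 µg) and 10.86 ± 0.43 (crocidolite) (SD, 8 mice each, as below). At month 6 they were 11.34 ± 0.39 (DM), 11.43 ± 0.34 (1 µg), 11.37 ± 0.45 (10 µg), 11.58 ± 0.40 (40 µg), 11.31 ± 0.34 (80 µg) and 11.49 ± 0.42 (crocidolite). The month 12 means were 11.61 ± 0.22 (DM), 11.63 ± 0.61 (1 µg), 11.51 ± 0.46 (10 µg), 11.37 ± 0.67 (40 µg), 11.44 ± 0.18 (80 µg) and 11.44 ± 0.38 (crocidolite). Its 6 lowest means were the 6 of month 1, while 4 of the 6 highest were of month 12, in an order from 10.59 (DM, month 1) to 11.63 (1 µg, month 12).

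Probe 3063 was higher mainly at month 12 in exposed mice. There it ranged from 9.5 to 11.90 (median 10.40) at month 1, from 9.82 to 11.69 (median 10.69) at month 6 and from 10.20 to 12.03 (median 11.10) at month 12. The month 6 difference was 0.23 ± 0.10 (SE), 35.2% of that at month 12, and month 12 exceeded month 6 by 0.41 ± 0.10. At month 12, 39 of 40 mice were above the month 1 median. Between the 5 exposed groups the month 12 difference was even, from 0.56 to 0.77, each ± 0.23. At month 6 it was 0.39 at 1 µg and at 10 µg and 0.47 with crocidolite, but -0.14 at 40 µg and 0.02 at 80 µg. Those 2 groups held 4 of the arrays that stand apart, all at month 1, and their probe 3063 was high there. Without the 8 arrays the differences at 40 and 80 µg were 0.17 ± 0.21 and 0.32 ± 0.21, and the pooled month 6 and month 12 differences were 0.31 ± 0.09 and 0.76 ± 0.09. In DM, probe 3063 was already higher by 0.69 ± 0.23 at month 6, from mice at 9.45 to 10.83 (median 10.46) at month 1, 10.31 to 12.30 (median 10.87) at month 6 and 10.89 to 11.84 (median 11.25) at month 12. All 8 DM mice of month 12 were above the highest of month 1, a count on the contrast that chose the probe, from which nothing is read. The highest DM value at month 6 was on the array that stands apart, and without the 8 arrays that difference was 0.51 ± 0.20 and not called. Before scaling, the median intensity of probe 3063 in exposed mice was 1529.2, 1475.0 and 2220.0 at months 1, 6 and 12. On that scale month 6 was not above month 1.

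The month 1 means of probe 3063 were 10.29 ± 0.48 (DM), 10.33 ± 0.30 (1 µg), 10.47 ± 0.57 (10 µg), 10.61 ± 0.74 (40 µg), 10.71 ± 0.65 (80 µg) and 10.22 ± 0.42 (crocidolite). Month 6 gave 10.99 ± 0.66 (DM), 10.72 ± 0.45 (1 µg), 10.86 ± 0.42 (10 µg), 10.47 ± 0.38 (40 µg), 10.73 ± 0.19 (80 µg) and 10.70 ± 0.41 (crocidolite). At month 12 its means were 11.29 ± 0.27 (DM), 11.02 ± 0.32 (1 µg), 11.07 ± 0.19 (10 µg), 11.18 ± 0.53 (40 µg), 11.29 ± 0.37 (80 µg) and 10.99 ± 0.40 (crocidolite). The 6 highest of its 18 means were the 6 of month 12, and the order ran from 10.22 (crocidolite, month 1) to 11.29 (80 µg, month 12).

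Probe 3241 was higher in steps, and its spread grew with its level. In exposed mice it ranged from 6.72 to 8.88 (median 7.40) at month 1, from 6.91 to 12.11 (median 7.84) at month 6 and from 7.05 to 12.72 (median 8.82) at month 12. The SD over the 40 mice was 0.50, 1.11 and 1.26. The lowest mice of the later months thus lay within the month 1 range while others were far above it. Above the highest of month 1 were 8 of 40 at month 6 and 19 of 40 at month 12. Month 6 exceeded month 1 by 0.68 ± 0.23 (SE), and month 12 exceeded month 6 by 0.66 ± 0.23. Each of the 5 exposed groups was higher at month 6, from 0.44 at 1 µg to 1.02 with crocidolite, and at month 12, from 1.06 at 80 µg to 1.62 at 1 µg, each ± 0.50. Without the 8 arrays the 10 µg mean at month 6 was 7.65 in place of 8.08, against 7.44 at month 1. The 1 µg mean was then 7.96 against 7.54, so the month 6 difference was smallest at 10 µg. The background-subtracted intensity had a median of 120 at month 1, 151 at month 6 and 463 at month 12 in exposed mice. In DM the 8 mice ranged from 7.08 to 8.97 (median 7.58) at month 1, from 7.09 to 10.69 (median 8.57) at month 6 and from 7.88 to 9.17 (median 8.20) at month 12. The month 12 DM mice were close together, and 1 of 8 was above the highest of month 1. With robust regression, which gives less weight to single mice, the pooled differences were 0.50 ± 0.15 at month 6 and 1.23 ± 0.15 at month 12.

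Group means of probe 3241 at month 1 were 7.76 ± 0.65 (DM), 7.54 ± 0.50 (1 µg), 7.44 ± 0.38 (10 µg), 7.52 ± 0.64 (40 µg), 7.61 ± 0.57 (80 µg) and 7.29 ± 0.43 (crocidolite). Those of month 6 were 8.54 ± 1.14 (DM), 7.99 ± 0.70 (1 µg), 8.08 ± 1.29 (10 µg), 8.17 ± 0.98 (40 µg), 8.24 ± 1.65 (80 µg) and 8.32 ± 0.97 (crocidolite). Those of month 12 were 8.39 ± 0.43 (DM), 9.16 ± 1.06 (1 µg), 8.82 ± 1.35 (10 µg), 8.84 ± 1.76 (40 µg), 8.68 ± 1.17 (80 µg) and 8.60 ± 1.09 (crocidolite). The 6 lowest means were again those of month 1, and 5 of the 6 highest were of month 12, from 7.29 (crocidolite, month 1) to 9.16 (1 µg, month 12).

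The other 4 probes, 1870, ORB_1008008, ORB_1112352 and ORB1157, were higher by similar amounts at month 6 and moved together between mice. Their pooled month 6 differences were 0.50 ± 0.18 (SE, probe 1870), 0.46 ± 0.10 (probe ORB_1008008), 0.45 ± 0.14 (probe ORB_1112352) and 0.50 ± 0.17 (probe ORB1157), which are 71.8%, 58.8%, 59.6% and 64.5% of those at month 12. From month 6 to month 12 they differed by a further 0.20 ± 0.18, 0.32 ± 0.10, 0.30 ± 0.14 and 0.28 ± 0.17. Before scaling, their median intensities in exposed mice at month 1 were 2805.0, 440.5, 4050.8 and 365.8. At month 6 they were 3040.0, 492.8, 4730.5 and 360.5, so probe ORB1157 was not higher on that scale.

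Probe ORB_1008008 had the narrowest spread of the 4. In exposed mice it ranged from 6.86 to 9.37 (median 8.84) at month 1, from 6.98 to 9.68 (median 9.35) at month 6 and from 9.07 to 10.08 (median 9.51) at month 12. At month 12 all 40 exposed mice were above the month 1 median and 26 above the month 1 maximum, against 37 and 12 at month 6. Its group mean was higher at each later month in all 6 exposures, which with all arrays held for no other of the 7 probes. Without the 8 arrays that stand apart it held for probe 3063 too. The probe 3063 means at 40 µg were then 10.30, 10.47 and 11.18 at months 1, 6 and 12. In DM it ranged from 8.30 to 9.01 (median 8.81) at month 1, from 7.45 to 9.39 (median 8.97) at month 6 and from 8.11 to 9.75 (median 9.42) at month 12.

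Probe ORB_1008008 had means at month 1 of 8.75 ± 0.23 (DM), 8.70 ± 0.25 (1 µg), 8.99 ± 0.17 (10 µg), 8.52 ± 0.72 (40 µg), 8.59 ± 0.80 (80 µg) and 8.75 ± 0.23 (crocidolite). They were 8.84 ± 0.67 (DM), 9.01 ± 0.52 (1 µg), 9.10 ± 0.87 (10 µg), 9.29 ± 0.31 (40 µg), 9.29 ± 0.22 (80 µg) and 9.19 ± 0.41 (crocidolite) at month 6. They were 9.25 ± 0.51 (DM), 9.48 ± 0.28 (1 µg), 9.51 ± 0.18 (10 µg), 9.46 ± 0.29 (40 µg), 9.57 ± 0.34 (80 µg) and 9.49 ± 0.21 (crocidolite) at month 12. The order ran from 8.52 (40 µg, month 1) to 9.57 (80 µg, month 12), with 5 means of month 12 among the 6 highest.

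Probe 1870 had the longest lower tail. Exposed mice ranged from 7.64 to 11.90 (median 11.28) at month 1, from 7.65 to 12.38 (median 11.66) at month 6 and from 10.98 to 12.30 (median 11.69) at month 12. The medians differed between months by less than this tail. In DM the probe ranged from 10.80 to 11.63 (median 11.03) at month 1, from 7.56 to 11.87 (median 11.38) at month 6 and from 8.97 to 12.18 (median 11.56) at month 12. The DM medians were thus in the order of the months, while the DM means were 11.11, 10.77 and 11.21.

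Means of probe 1870 at month 1 were 11.11 ± 0.25 (DM), 11.29 ± 0.45 (1 µg), 11.42 ± 0.11 (10 µg), 10.53 ± 1.59 (40 µg), 10.47 ± 1.30 (80 µg) and 11.17 ± 0.41 (crocidolite). Its month 6 means were 10.77 ± 1.46 (DM), 11.41 ± 1.10 (1 µg), 11.31 ± 1.5 (10 µg), 11.80 ± 0.29 (40 µg), 11.53 ± 0.23 (80 µg) and 11.35 ± 0.70 (crocidolite). Its month 12 means were 11.21 ± 1.02 (DM), 11.59 ± 0.30 (1 µg), 11.82 ± 0.33 (10 µg), 11.64 ± 0.46 (40 µg), 11.79 ± 0.21 (80 µg) and 11.56 ± 0.29 (crocidolite). The SD was above 1 in 6 of the 18 groups, each of which held a mouse below 9.5, and the means ran from 10.47 (80 µg, month 1) to 11.82 (10 µg, month 12).

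Probe ORB_1112352 in exposed mice ranged from 9.19 to 12.72 (median 11.95) at month 1, from 10.12 to 13.63 (median 12.32) at month 6 and from 11.81 to 13.11 (median 12.48) at month 12. In DM it ranged from 11.44 to 12.46 (median 12.11) at month 1, from 10.31 to 12.80 (median 12.02) at month 6 and from 10.83 to 13.18 (median 12.32) at month 12. Probe ORB1157 ranged in exposed mice from 6.77 to 9.35 (median 8.46) at month 1, from 6.79 to 10.17 (median 8.90) at month 6 and from 7.45 to 10.05 (median 9.19) at month 12. In DM it ranged from 7.81 to 8.54 (median 8.18), from 6.54 to 9.61 (median 8.24) and from 6.91 to 9.73 (median 8.54) at the 3 months. The months overlapped in both probes, with 36 of 40 exposed mice for probe ORB_1112352 and 31 of 40 for probe ORB1157 above the month 1 median at month 12.

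Probe ORB_1112352 had means of 12.08 ± 0.31 (DM), 11.59 ± 0.46 (1 µg), 12.14 ± 0.11 (10 µg), 11.57 ± 1.35 (40 µg), 11.60 ± 1.03 (80 µg) and 11.67 ± 0.20 (crocidolite) at month 1. By month 6 they were 11.86 ± 0.85 (DM), 11.87 ± 0.75 (1 µg), 11.87 ± 0.79 (10 µg), 12.46 ± 0.40 (40 µg), 12.52 ± 0.60 (80 µg) and 12.09 ± 0.85 (crocidolite). By month 12 they were 12.26 ± 0.70 (DM), 12.64 ± 0.27 (1 µg), 12.42 ± 0.42 (10 µg), 12.48 ± 0.30 (40 µg), 12.44 ± 0.44 (80 µg) and 12.37 ± 0.32 (crocidolite). Here 4 of the 6 highest means were of month 12, and the order ran from 11.57 (40 µg, month 1) to 12.64 (1 µg, month 12).

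Mean levels of probe ORB1157 at month 1 were 8.17 ± 0.27 (DM), 8.15 ± 0.69 (1 µg), 8.53 ± 0.30 (10 µg), 8.32 ± 1.01 (40 µg), 8.04 ± 0.88 (80 µg) and 8.21 ± 0.59 (crocidolite). Month 6 means were 8.16 ± 1.08 (DM), 8.40 ± 0.91 (1 µg), 8.82 ± 0.83 (10 µg), 9.26 ± 0.62 (40 µg), 8.66 ± 0.51 (80 µg) and 8.63 ± 0.82 (crocidolite). Month 12 means were 8.47 ± 0.95 (DM), 9.04 ± 0.41 (1 µg), 9.12 ± 0.50 (10 µg), 8.91 ± 0.92 (40 µg), 9.05 ± 0.84 (80 µg) and 9.03 ± 0.65 (crocidolite). The highest of its 18 means, 9.26, was that of 40 µg at month 6, and the lowest, 8.04, that of 80 µg at month 1.

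At month 6 the calls within single exposed groups were of 3 of these 4 probes, at 40 and 80 µg, and they changed without the arrays that stand apart. In exposed mice pooled over groups, 1 of the 7 probes, 3241, was called at month 6. It was the only 1 of all 742 probes called higher, so the share of 0.135% is this probe itself. Between months 12 and 6 it was again 3241 alone, and again the 0.135% of all probes is this probe. Without the fold limit, all 7 had an adjusted p under 0.10 at month 6. Of all 742 probes, 255 had an unadjusted p under 0.05 there (limma), so nothing is read from that count. In the 5 single groups 6 of 35 values were called. These were probes 1870, ORB_1008008 and ORB_1112352 at 40 µg (1.27 ± 0.41, 0.77 ± 0.23 and 0.90 ± 0.32, SE), where 1.62% of all probes were called higher, and the same probes at 80 µg (1.06 ± 0.41, 0.70 ± 0.23 and 0.91 ± 0.32), beside 2.70%. No member was called at 1 µg (0% of all probes), at 10 µg (0.135%) or with crocidolite (0%). In DM, probes 3063 and 3210 were called at month 6, beside 1.89%. That background depends on the scaling. The DM calls at month 6 were 14 higher and 9 lower, but 170 of 184 were higher in the deposited table, where the median of all probes moved by 0.32.

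The 40 and 80 µg groups of month 1 held the low values behind these calls. At month 1, probe 1870 ranged from 7.76 to 11.74 (median 11.32) at 40 µg and from 7.64 to 11.44 (median 11.02) at 80 µg, against 11.27 to 11.59 (median 11.42) at 10 µg. On 7 of the 8 arrays that stand apart, all but replicate 5 of 80 µg at month 1, probe 1870 was below 9.5, which held for 8 arrays in all. Without the 8 arrays the month 6 differences at 40 µg were 0.43 ± 0.22 (SE, probe 1870), 0.39 ± 0.15 (probe ORB_1008008) and 0.18 ± 0.24 (probe ORB_1112352), and none was called. At 80 µg they were 0.65 ± 0.22, 0.51 ± 0.15 and 0.70 ± 0.24, of which probes 1870 and ORB_1112352 were called. Probe 3210 with crocidolite (0.63 ± 0.20) was then called too, 3 of 35 in all. Of the 3 calls at 40 µg, 0 were left without either replicate 4 or replicate 5 of month 1 and 1 without replicate 1 of month 6. Of the 3 at 80 µg, 0 of the 3 were left without replicate 3 of month 1, and 1 each without replicate 2 of month 1 or replicate 6 of month 6.

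The difference between DM and exposed mice in these 4 probes also moved with those arrays. In DM the month 12 differences without the 8 arrays were 0.42 ± 0.21 (SE, probe 1870), 0.67 ± 0.14 (probe ORB_1008008), 0.38 ± 0.23 (probe ORB_1112352) and 0.52 ± 0.33 (probe ORB1157), with 8 mice at month 1 and 7 at month 12. In exposed mice they were 0.45 ± 0.10, 0.68 ± 0.06, 0.57 ± 0.10 and 0.63 ± 0.15, so each DM value lay within 1 SE of the exposed one. At month 6 the DM values with all arrays were -0.34 ± 0.41, 0.10 ± 0.23, -0.22 ± 0.32 and -0.01 ± 0.37 in the same order of probes. With the 8 arrays left out they were 0.12 ± 0.21, 0.30 ± 0.14, -0.00 ± 0.23 and 0.22 ± 0.33, and the exposed ones 0.43 ± 0.10, 0.45 ± 0.06, 0.36 ± 0.10 and 0.46 ± 0.15. At 10 µg the month 6 difference of probe 1870 was -0.10 ± 0.41 with all arrays and 0.42 ± 0.21 without. Pooled over exposures, 4 of the 7 probes were called at month 12 without the 8 arrays. Probes 1870 and ORB_1112352 fell under the fold limit. The part of array quality in these differences was not tested further.

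At month 12, 11 of 35 values in single exposed groups were called, in 4 of the 5 groups. These are counts on the contrast that chose the probes, and nothing is read from them. At 1 µg there were 4 (probes 3063, 3241, ORB_1008008 and ORB_1112352), beside 0.943% of all probes, and at 80 µg also 4 (probes 1870, ORB_1008008, ORB_1112352 and ORB1157), beside 2.56%. With crocidolite there were 2 (probes 3063 and ORB_1008008), beside 0.674%, at 40 µg 1 (probe ORB_1008008), beside 0.404%, and at 10 µg 0, beside 0.270%. Without the 8 arrays, 15 of 35 were called. All 35 differences were positive. The median over the 7 probes ran from 0.60 at 10 µg to 0.98 at 80 µg. The median over all 742 probes is held near 0 by quantile normalization and is no comparison here. In the deposited table it was -0.15 at 80 µg. Single arrays decided these counts. At 1 µg no call was left without replicate 4 or 5 of month 1 or replicate 3 or 8 of month 12, and 2 without replicate 1 of month 1 or replicate 2 of month 12. With crocidolite none was left without replicate 5 of month 1 or replicate 5 of month 12, and 1 was left without replicate 3, 6, 7 or 8 of month 1 or replicate 1, 3, 4 or 8 of month 12. At 80 µg, 2 were left without replicate 3 of month 1. At 40 µg the count was 2 or 3 without replicate 1, 2, 4, 6, 7 or 8 of month 1 or replicate 1 or 7 of month 12. At 10 µg it was 1 without replicate 1 of month 1 and 2 without replicate 1 of month 12.

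Whether the month change differed between the 5 exposed groups was tested directly. The F test (8 contrasts, limma) called 0 of the 7 probes and 0% of all probes. Adjusted p ran from 0.965 for probes 1870 and ORB_1112352 to 0.991 for probe 3241. At an unadjusted p under 0.05 there were 30 of 742 probes and 0 of the 7. These contrasts include the month difference that chose the probes, and that choice could favour probes with an even change across groups. Beside a background of 30 of 742, a count of 0 of 7 is also uninformative. Whether exposures differed in when the probes were higher therefore cannot be decided by this test. The SEs above give the size of a difference that could have been missed.

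The comparison with DM of the same month at month 6 is the one that neither month 1 nor month 12 mice enter. No member was called in any of the 35 values, beside 0% of all probes at 1 µg, 10 µg, 40 µg and with crocidolite and 0.270% at 80 µg. The values ran from -0.55 to 1.10, with 24 of 35 above 0, beside 42.7% (40 µg) to 48.0% (1 µg) of all probes. The smallest adjusted p was 0.169, for probe ORB1157 at 40 µg (1.10 ± 0.37, SE, limma). Probe 1870 at 40 µg differed from DM by 1.03 ± 0.41 (adjusted p = 0.233), probe 3063 at 40 µg by -0.51 ± 0.23 (adjusted p = 0.257) and probe ORB_1112352 at 80 µg by 0.65 ± 0.32 (adjusted p = 0.229). These 4 were the values with an unadjusted p under 0.05, beside 123 of 742 probes at 40 µg and 150 at 80 µg (limma). The 4 probes that move together were above DM in all 5 exposed groups and probes 3063 and 3241 below it in all 5, against DM groups that are shared by all 5 comparisons and include replicate 4. Without the 8 arrays, the differences from DM ran from 0.01 to 0.87 for these 4 probes and from -0.82 to -0.06 for the other 2. The trend over the 4 MWCNT doses at month 6 called 0 of the 7 and 0% of all probes (limma, no fold limit). At an unadjusted p under 0.05 there was 1 of the 7, beside 51 of 742 probes. At months 1 and 12 it also called 0 of the 7, beside 0.135% and 0%. Against DM at months 1 and 12, which share mice with the choice of the probes, 0 of 35 values each were called and 0% of all probes in each group. At an unadjusted p under 0.05 (limma) there were 1 of 35 at month 1 and 0 of 35 at month 12. Beside these stood 20 to 79 of 742 probes a group at month 1 and 13 to 44 at month 12. The lowest adjusted p in these comparisons was 0.246 at month 1 and 0.894 at month 12.

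Scan days held several months, so the month differences were also computed within days over exposed mice. At month 12 all 7 probes were higher on each of the 4 days that held both months, from 0.14 for probe 1870 to 1.60 for probe 3241. Those days, 3 to 6, had 6 to 17 mice at month 12 and 3 to 8 at month 1. This is the difference that chose the probes, so its sign within days is a description and supports nothing. At month 6 the number of days with a positive difference was 5 of 5 for probe 3210, 4 of 5 for probes 3063, 3241, ORB_1008008 and ORB1157, and 3 of 5 for probes 1870 and ORB_1112352. For probe 1870 the days ran from -0.30 to 1.81. The days used for month 6 were 1, 2, 3, 5 and 6, with 2 to 15 mice at month 6 and 5 to 10 at month 1. Day 3 had the 2 mice, against 8 of month 1. It gave the 1.81 of probe 1870 and the only negative days of probes 3063 (-0.04) and 3241 (-0.33). Months 12 and 6 were not compared within days. The exposures lay at different positions on the slides (DM, 10 and 80 µg at A or C on 71 of 72 arrays, and 1 µg, 40 µg and crocidolite at B or D on 70 of 72). Within an exposure the share of each position was not the same at every month.

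Correlation between mice was computed on deviations from the group mean, so that month and exposure do not enter it. On 7 of the 8 arrays that stand apart, the mean deviation of probes 1870, ORB_1008008, ORB_1112352 and ORB1157 was -2.38 to -1.59, while on the eighth (80 µg, month 1, replicate 5) it was 0.36. The lowest of the other arrays was crocidolite at month 6, replicate 1, at -1.47. The 136 other mice are given first. Among them the 6 pairs of these 4 probes had Pearson r from 0.43 (probes 1870 and ORB_1112352) to 0.70 (probes 1870 and ORB1157) and Spearman rho from 0.31 to 0.65. Without the 2 mice farthest from the median of the first probe of the pair, r was 0.33 to 0.65. The adjusted p of Pearson r over the 21 pairs (permutation within groups, 100000 draws, two-sided) was 4e-05 for 5 pairs, whose unadjusted p of 1e-05 is the smallest these draws can give, and 0.00045 for probes 1870 and ORB_1112352. No r was computed within the 8 arrays.

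Over all 144 mice the same 6 pairs had r from 0.70 to 0.85 and rho from 0.54 to 0.69, and r from 0.69 to 0.80 without the 2 farthest mice. Their adjusted p was 3e-05 each (permutation). Within the 6 scan days with at least 6 arrays, every one of the 6 pairs was positive on every day, from 0.29 to 0.91. Over all 274911 pairs of tested probes the median absolute r was 0.14, and 0.926% of pairs reached 0.7 in size. These 4 probes had many such partners. Outside the 7, probe 1870 had r of 0.7 or more with 45 of 735 probes, probe ORB_1008008 with 37, probe ORB_1112352 with 26 and probe ORB1157 with 21. Without the 8 arrays these numbers were 8, 1, 0 and 11. Correlation with array brightness was 0.14, 0.10, 0.10 and -0.06. The 4 probes were printed in 4 different blocks of the array (2, 1, 5 and 6).

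Probe 3063 ran against these 4 probes. Over 144 mice its r was -0.57 with probe 1870, -0.56 with probe ORB1157, -0.40 with probe ORB_1008008 and -0.39 with probe ORB_1112352, with adjusted p of 3e-05, 3e-05, 0.00014 and 0.000273 (permutation), and rho was -0.46, -0.51, -0.19 and -0.23. Without the 8 arrays r was -0.30 (probe 1870, adjusted p = 0.00134, permutation) and -0.40 (probe ORB1157, adjusted p = 7e-05, permutation), but -0.02 (probe ORB_1008008) and -0.06 (probe ORB_1112352). Within a group, mice with more of probe 3063 thus had less of probes 1870 and ORB1157, although all 3 probes had positive month 12 differences. Outside the 7, probe 3063 had r of 0.7 or more with 10 probes and probe 3210 with 2, and without the 8 arrays with 11 and 4.

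Correlations of probes 3210 and 3241 were weak, with each other and with the other 5. Between the 2 of them r was 0.25 (rho 0.25, adjusted p = 0.00905, permutation) over 144 mice, 0.21 without the 2 farthest mice and 0.32 without the 8 arrays, and it was positive on 6 of 6 scan days (0.09 to 0.48). Probe 3241 had no tested probe outside the 7 with r of 0.7 or more, and its highest was 0.32. Over 144 mice probe 3241 was below 0 with probes 1870 (-0.22), ORB_1008008 (-0.30) and ORB_1112352 (-0.21), with adjusted p of 0.0152, 0.00138 and 0.0152 (permutation). Probe 3210 with probe ORB_1112352 had r of -0.23 (adjusted p = 0.0152, permutation). None of the 4 had an adjusted p of Pearson r under 0.05 without the 8 arrays. Probes 3063 and 3210, the pair that was called in DM, had r of -0.15 (rho -0.11, adjusted p = 0.161, permutation). Of the 21 pairs, 15 had an adjusted p under 0.05 over 144 mice and 9 without the 8 arrays.

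Over the 18 group means, which are a description because the month difference chose the probes, the profile of the 7 was most like that of probes ORB_0409080 (Pearson r of 0.92) and 1115 (r of 0.88) among the probes outside the 7. Both were higher at month 12 in exposed mice by less than the 7, at 0.27 ± 0.05 and 0.30 ± 0.06 (SE).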

How the data were processed

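The members and gene lists were chosen with earlier results of these data known, and the design took DM between months as the contrast that chose them, which the values bear out for probes 3063 and 3210 alone. In the 144 arrays of mouse blood, the authors marked small RNA with a single dye, hybridised it to custom miRNA arrays and scanned them. The deposited scanner files hold, per the file headers, linear, unnormalized median intensity inside and around every spot. The deposited value table holds log2 intensity of 1262 mouse probes, which equals the mean log2 background-subtracted intensity of unflagged spots plus a constant per array (SD of the difference at most 1.21e-09). No fold-change or p-value columns of the authors were used.

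Background correction used normexp (offset 50, limma 3.58.1, R 4.3.3), log2 was taken, spots marked bad were left out, the 3 spots of a probe were averaged and the mouse probes were quantile normalized. The offset compresses differences of dim probes. A probe was tested (742) when above threshold, the 10% trimmed mean of 21 empty spots plus 5 SD (13.0 to 62.6), on all 8 arrays of at least 1 group. Limma was fitted on 18 group means of 144 arrays and tested on simulated data. Named probes were the 7 and the 2 others whose group means correlate best with theirs. Replicates were numbered in the order of deposit, only to name them. Each array is a separate mouse per the labels. The number of arrays limits the precision. Permutations used Python with numpy 2.4.6. Alternatives covered background, scaling, filter, spots, slide, scan day, position, brightness, rescans (4 arrays), groups, thresholds, a 2-group test after the paper and single arrays (96 fits); the arrays that stand apart and robust regression were added after the data were seen.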

Additional observations from a re-analysis of the deposited data

Results flagged for a closer look

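In each of the 126 groups of 8 values (7 probes by 18 groups), the highest or lowest mouse was compared with its nearest neighbour, and 16 values lay farther from it, relative to the range of the group, than Dixon's limit for 8 mice. Chance flags about 1 in 20 groups. Of the 16, 9 were low values of the 4 probes that move together, and 7 were on arrays that stand apart.

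Low values of those 4 probes came for 5 of the 9 from 2 mice of month 6. In 10 µg replicate 7, probe 1870 was at 7.65 (next lowest 11.44), probe ORB_1008008 at 6.98 (9.20) and probe ORB1157 at 6.85 (8.69). In 1 µg replicate 3, probe 1870 was at 8.82 (11.15) and probe ORB_1008008 at 7.89 (8.88). Both arrays stand apart. In crocidolite replicate 1 of month 6, probe 1870 was at 9.68 (11.30). At month 12, probe ORB_1008008 was at 8.11 in DM replicate 1, which stands apart, and probe ORB1157 at 7.57 in crocidolite replicate 3. At month 1, probe ORB_1112352 was at 10.64 in 1 µg replicate 7.

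Probe 3241 had 5 single high mice. They were at 12.72 (40 µg, month 12, replicate 4, next highest 9.27), 12.11 (80 µg, month 6, replicate 5, next highest 8.42), 11.15 (10 µg, month 6, replicate 7, the array that stands apart), 9.45 (1 µg, month 6, replicate 1) and 8.68 (1 µg, month 1, replicate 7). Probe 3063 was at 11.15 in 80 µg replicate 5 of month 6, the mouse that was also high in probe 3241. Probe 3210 was at 11.15 in DM replicate 3 of month 12, the lowest of that group.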

How the results depend on the processing

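No paired analysis was possible because the labels give no replicate numbers and each mouse was sampled once. All 7 pooled differences at months 6 and 12 kept their direction under the alternatives run, all of which scaled the arrays. Of 7 probes pooled at month 6, 1 was called, and 2 with the deposited table or with background subtraction and trimmed-mean scaling, 7 without the fold limit and 0 with robust regression. Between months 12 and 6, 1 was called, and 0 with scan day as a term or an adjusted p under 0.05 and 3 without the fold limit. At an unadjusted p under 0.05 there were 255 of 742 probes at month 6 and 148 between months 12 and 6 (limma). Of 35 values in single groups at month 12, 11 were called, and 6 with no filter, 7 with scan day, 3 at an adjusted p under 0.05, 22 with robust regression and 7 to 13 without single arrays. At month 6, 6 were called, and 2 with scan day or an adjusted p under 0.05, 3 without the 8 arrays, 0 with the 2-group test and 3 to 7 without single arrays. Against DM 0 of 105 were called, and 2 with normexp and trimmed-mean scaling and 1 with slide as a random block. Of 21 correlated pairs 15 passed, and 9 without the 8 arrays. The cause of these changes was not tested. Trimmed-mean scaling, with either background, and the deposited table moved the median of all probes by 0.19 for exposed mice at month 6. Of 1561 values of single probes between months, 1445 kept their side of the threshold and moved by less than 1 SD. Another 64 were called only under the alternative, 50 lost their call and 2 moved by 1 SD or more. At month 6, uncalled values of probe 3063 at 40 and 80 µg, probe 1870 at 10 µg and in DM and probe ORB1157 in DM turned direction under at least 1 alternative. The largest of these, probe 1870 in DM, was -0.34, and 0.12 without the 8 arrays.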
